A study of Mus musculus with 4 samples.

Results

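The genes described here are 40 mouse genes of cholesterol and fatty acid synthesis that were chosen by name from these pathways. The choice was made with earlier results of these data known, which limits what the comparisons of these genes with all genes can show. They cover the route from acetyl-CoA to farnesyl diphosphate, the route from squalene to cholesterol, the SREBP regulators, the synthesis, elongation, desaturation and activation of fatty acids, and the movement of cholesterol. Of the 40 genes, 33 have a named probe on the arrays, out of 8980 genes named in all, and 31 of the 33 were detected on all 4 arrays. The other 7 (Acat2, Mvk, Idi1, Fdft1, Npc1, Soat1 and Abca1) have no named probe here and were not analysed.

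Cholesterol is built from acetyl-CoA through mevalonate, farnesyl diphosphate, squalene and lanosterol. Transcription of most of these enzymes is driven by the SREBP proteins, which SCAP escorts out of the endoplasmic reticulum when sterols are low and which the INSIG proteins hold back when sterols are high. Little cholesterol enters the brain from blood, so neural cells make their own, with astrocytes supplying neurons and oligodendrocytes drawing on it for myelin.

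The cells were neural precursors of the ICR strain, cultured from embryonic cortex taken at day 12 and expanded with bFGF and EGF in serum-free N2 medium with B27 and ascorbic acid. Every group then received a retrovirus made in the vector pCL for 2 hours, and both mitogens were withdrawn for 2 days of differentiation. Control cells received empty pCL, and the other groups received virus for Nurr1, for Foxa2, or for Nurr1 and Foxa2. Nurr1, the product of Nr4a2, is a nuclear receptor and Foxa2 is a forkhead factor, and both are needed by midbrain dopamine neurons, whose induction was the study's stated purpose. These are cortical cells carrying an added factor, not midbrain cells, and the share of cells that took up virus is not given in the labels.

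RNA of each group was measured on 1 Illumina bead array, so no difference below has a replicate check and none was tested. Between 42.7% and 44.6% of probes were detected per array, at a detection p-value below 0.01, and the median signals lay between 134 and 149. The Nr4a2 signal was 167 on the Control array, 1669 with Nurr1, 216 with Foxa2 and 1620 with both, so that both arrays labelled with Nurr1 stood above the 2 without it. Foxa2 itself has no named probe here. All 5 named markers of cortical precursors (Sox2, Nes, Hes5, Fabp7 and Vim) were detected on all 4 arrays.

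Signals below are the scanner's bead signals before normalization. Differences are in log2 after background correction and quantile normalization, so that a small difference can have the opposite sign to the raw signals. A probe counted as at least 2-fold higher or lower when the log2 difference reached 1 in size and the brighter array detected it. Where the dimmer array did not detect the probe, the difference is a bound, taken from that array's lowest detected signal. The only measure of error is how far separate probes of a gene differ, with an SD of 0.18 on the log2 scale for Nurr1 against Control (1943 genes with several probes), 0.20 for Foxa2 against Control (1975 genes) and 0.24 for both factors against Control (1925 genes). It contains no variation between cultures or arrays.

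The promoter windows of 5 genes the results turn on are shown first. Hmgcs1 and Msmo1 are sterol synthesis genes that were lower on all 3 factor arrays, Insig1 is a feedback gene that was also lower on all 3, Fads2 had the lowest value of all the members, and Ebp was the sterol gene with the highest. The sequences are the 250 bases before the annotated start, 5′ to 3′ on the gene's strand, from RefSeq on GRCm38.p6. Capitals mark letters matching the sterol regulatory element TCACNCCAC or the NF-Y box CCAAT, each on either strand.
Hmgcs1 (chr13:119690101-119690350, plus strand): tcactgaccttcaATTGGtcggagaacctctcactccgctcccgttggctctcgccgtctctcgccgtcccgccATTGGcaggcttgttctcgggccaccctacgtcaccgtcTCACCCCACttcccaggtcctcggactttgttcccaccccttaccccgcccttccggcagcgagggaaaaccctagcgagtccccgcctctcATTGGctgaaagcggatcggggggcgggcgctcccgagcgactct
Msmo1 (chr8:64733579-64733828, minus strand): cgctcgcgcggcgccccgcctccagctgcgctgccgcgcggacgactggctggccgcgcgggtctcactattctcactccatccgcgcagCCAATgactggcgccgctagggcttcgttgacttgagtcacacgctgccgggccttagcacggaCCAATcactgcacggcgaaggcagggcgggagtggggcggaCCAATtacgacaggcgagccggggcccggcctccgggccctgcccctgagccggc
Insig1 (chr5:28071162-28071411, plus strand): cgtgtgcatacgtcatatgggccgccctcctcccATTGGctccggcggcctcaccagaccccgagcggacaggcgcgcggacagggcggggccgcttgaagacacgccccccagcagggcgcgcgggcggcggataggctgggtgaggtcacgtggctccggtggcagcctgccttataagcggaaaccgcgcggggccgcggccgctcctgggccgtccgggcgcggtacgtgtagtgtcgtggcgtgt
Ebp (chrX:8193513-8193762, minus strand): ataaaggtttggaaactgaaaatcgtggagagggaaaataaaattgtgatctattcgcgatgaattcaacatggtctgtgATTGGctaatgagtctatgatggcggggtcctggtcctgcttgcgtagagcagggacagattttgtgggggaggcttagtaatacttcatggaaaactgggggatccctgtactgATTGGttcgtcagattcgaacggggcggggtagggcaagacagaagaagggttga
Fads2 (chr19:10101504-10101753, minus strand): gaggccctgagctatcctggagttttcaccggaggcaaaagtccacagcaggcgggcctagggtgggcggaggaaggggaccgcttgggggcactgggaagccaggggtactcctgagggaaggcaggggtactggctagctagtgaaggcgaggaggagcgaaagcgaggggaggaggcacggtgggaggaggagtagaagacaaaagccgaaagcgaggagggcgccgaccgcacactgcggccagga

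The Hmgcs1 window held 1 match to the sterol element, beginning 137 bases before the start, and 3 CCAAT boxes. The Msmo1 window held 3 CCAAT boxes, the Ebp window 2, the Insig1 window 1 and the Fads2 window none. Over all 41 windows found for 32 of the 40 genes, 25 (61%) held CCAAT, against 33.8% of the 32851 windows of all genes. The sterol element was in 1 of the 41 (2.44%), against 1.05% of all windows. The Nurr1 element AAAGGTCA was in none of the 41, against 1.34% of all windows, and the forkhead element TGTTTAC was in 1 (2.44%, in Elovl6), against 3.17%. All motifs were searched on both strands, and the matches in the Hmgcs1 window do not overlap. A match describes the letters and is not a measured binding site.

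Most of the lipid synthesis genes were lower with Nurr1 than with empty virus, by small amounts. Of the 32 members with a difference, 27 were below 0 and 5 above, and the median log2 difference was -0.29. Over all 7808 named genes with a difference, 54.3% were below 0 and 45.4% above, and the median was -0.03. No member reached 2-fold higher (4.43% of all genes did) and 1, Fads2, reached 2-fold lower (2.83% of all genes did). Below 0 by more than 2 probe SDs were 14 of 32 members (43.8%), against 16.9% of all genes, and 2 (6.25%) were above 0 by that much, against 14.2%.

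With Foxa2 alone the members stood closer to Control. Of 31 members with a difference, 23 were below 0 and 8 above, with a median of -0.16, where 54.9% of all 7783 genes were below 0, 45.1% were above and their median was -0.04. No member reached 2-fold higher or lower, against 3.58% and 1.5% of all genes. Below 0 by more than 2 probe SDs were 6 members (19.4%), against 13.2% of all genes, and 2 (6.45%) were above 0 by that much, against 12.9%.

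With both factors the share of members below Control was close to that of all genes. Of 33 members, 19 were below 0 and 14 above, with a median of -0.17, where 57.8% of all 7901 genes were below 0, 42.1% were above and their median was -0.09. Past 2-fold were 2 members on the higher side, Ebp and Acsl4, and 1 on the lower side, Fads2, against 7.16% and 4.82% of all genes. The 2 on the higher side became 0 without background correction, 0 in the authors' deposited log2 values and 1 with the mean of a gene's probes. Below 0 by more than 2 probe SDs were 9 members (27.3%), against 18.3% of all genes, and 4 (12.1%) were above 0 by that much, against 16.3%. With the mean of a gene's probes the members' median was -0.26, against -0.10 over all genes. These 3 comparisons share the Control array. On the normalized scale Control was the highest of the 4 arrays for 17 of the 31 members detected on all of them (54.8%), against 33.2% of 7127 genes, and the lowest for 3 (9.68%), against 21.6%. A value peculiar to that array would enter all 3 comparisons alike, and this was not tested.

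**Figure D1:**
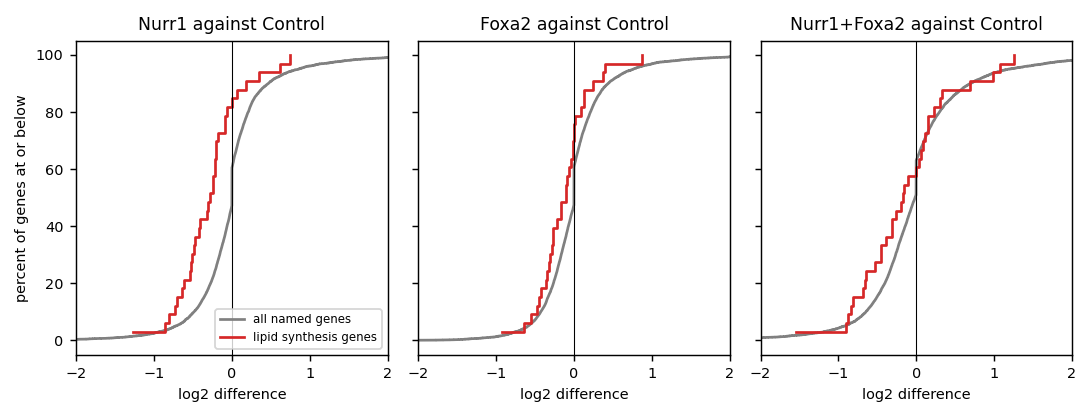
Share of genes at or below each log2 difference (horizontal axis) for the members with a named probe (red) and all named genes (grey), in 3 panels for the Nurr1, Foxa2 and Nurr1+Foxa2 arrays against Control, with genes detected on neither array entered as 0. The red line lies to the left of the grey one over most of the Nurr1 panel, where 27 of 32 members were below 0, and the lines cross in the panel for both factors.

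The plot of cumulative shares gives the same picture for the whole list, with the displacement toward lower values widest on the Nurr1 array. Markers of glial cells also differed between the arrays. The summed signal of the 5 named astrocyte markers was 78329 on Control, 58316 with Nurr1, 69187 with Foxa2 and 39696 with both. Of these markers Aqp4, Slc1a2, Slc1a3 and Aldh1l1 were lower with Nurr1, by -1.64 to -0.99, and with both factors, by -2.26 to -1.19. Gja1 was instead higher with Nurr1 (1.10) and with both (0.22). The summed signal of the 7 named oligodendrocyte lineage markers was 79556, 63355, 51321 and 33740 in the same order. That sum was carried by Olig1 (53318 on Control), which was -0.02 with Nurr1, -0.38 with Foxa2 and -0.88 with both. Olig2, Pdgfra, Cspg4, Cnp and Gpr17 were lower with Nurr1, by -1.30 to -0.34, and with both, by -2.98 to -1.44. With Foxa2 these genes were lower too, by -1.56 to -0.73. Mbp was undetected on the Control and Nurr1 arrays, and was at least 0.87 above Control with Foxa2. The 5 precursor markers summed to 24269, 27296, 30343 and 22050, a sum carried by Vim, which was higher with Nurr1 (0.70) and with both (0.39). The other 4 (Sox2, Nes, Hes5 and Fabp7) were lower with Nurr1, by -1.13 to -0.42, and with both, by -2.23 to -0.95. The 5 neuron markers summed to 12307, 14056, 14307 and 10627. Among them Stmn2 (1.38) and Syt1 (1.63) were higher with Nurr1, Dcx was 0.55, Map2 was -0.03 and Rbfox3 was lower (-1.48). With both factors Stmn2 was 1.06, Syt1 0.20, Dcx -0.11, Map2 -0.47 and Rbfox3 -1.75. The microglial marker Aif1, the 1 named of 5, was undetected on every array, none of the 5 endothelial and mural markers has a named probe, and of 3 named fibroblast markers 2 were undetected throughout and Dcn was detected with Nurr1 and with both. The part of these cell types in the differences was not tested, and in such mixed cultures fewer cells of a type and less RNA per cell cannot be told apart.

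**Figure D2:**
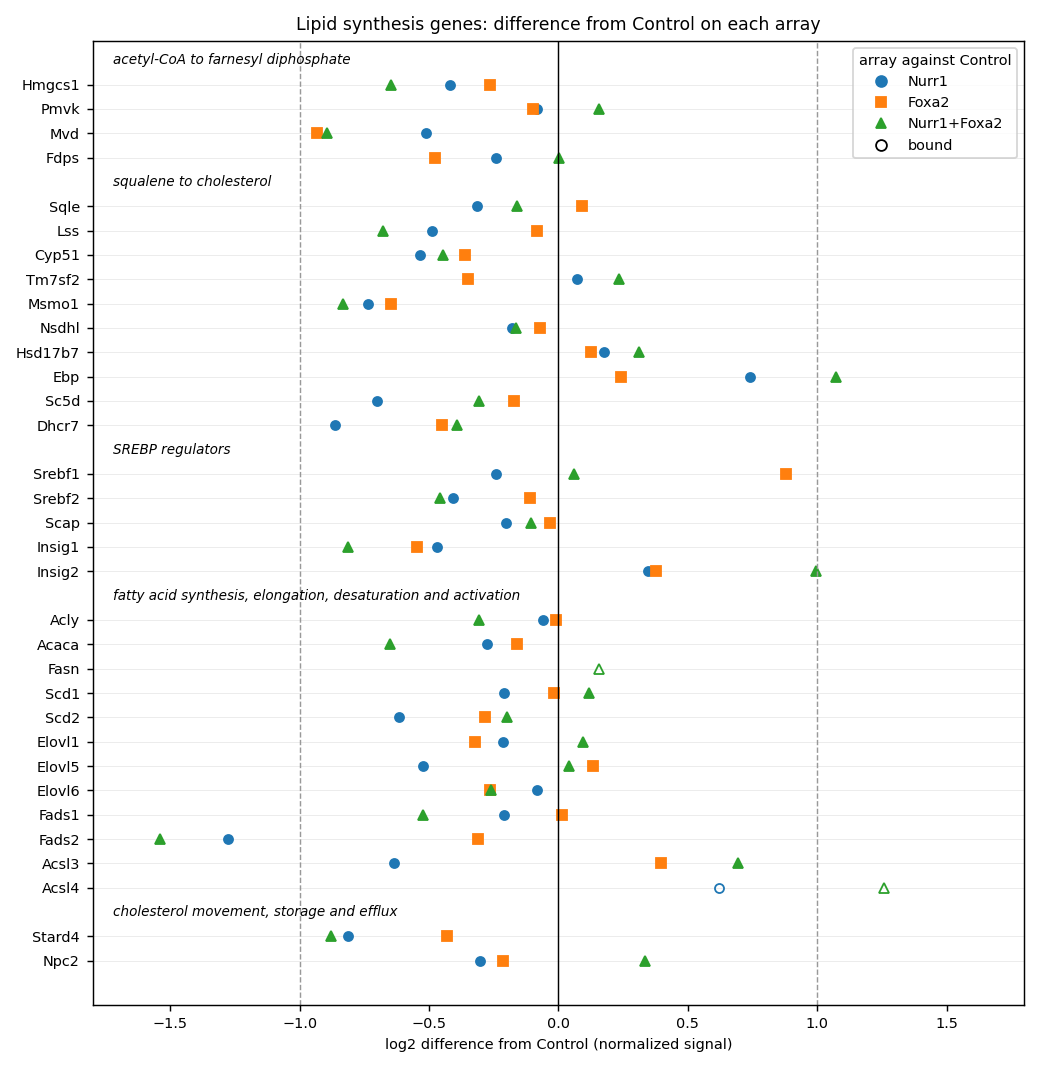
Log2 difference from Control (horizontal axis) for each member with a named probe, grouped by role, for the Nurr1 (circles), Foxa2 (squares) and Nurr1+Foxa2 (triangles) arrays. Open symbols are bounds and dashed lines mark 2-fold. Fads2 lies beyond the lower line on 2 arrays, and Ebp and Acsl4 lie beyond the upper line with both factors.

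The early enzymes, which make farnesyl diphosphate, were lower with each single factor for all 4 members measured, with medians of -0.33 for Nurr1 and -0.37 for Foxa2. Over all genes, 54.3% were below 0 with Nurr1 and 54.9% with Foxa2. Hmgcs1, the cytosolic HMG-CoA synthase that opens the sterol branch, lies at chr13:119690351-119708260. Its signal was 32474 on Control, 22645 with Nurr1, 25673 with Foxa2 and 20237 with both. Control was the highest array, and the log2 differences from it were -0.42, -0.27 and -0.65.

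Mvd, the decarboxylase that ends the mevalonate steps, had signals of 975, 746, 637 and 647 in the order Control, Nurr1, Foxa2 and both. It was lower by -0.51 with Nurr1, -0.93 with Foxa2 and -0.90 with both, so that adding Nurr1 to Foxa2 left it where Foxa2 alone had it (0.04). The 2-fold line was missed by little. Fdps, the farnesyl diphosphate synthase, had signals of 5405, 4789, 4354 and 6057. It was lower with each factor alone (-0.24 and -0.48) and level with Control when both were given (0.00). Pmvk, the phosphomevalonate kinase, had signals of 511, 525, 574 and 656, with differences of -0.08, -0.10 and 0.15, all smaller than the probe SD.

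Between squalene and cholesterol, 7 of 10 members were lower with Nurr1, with a median of -0.40, against 54.3% of all genes. With Foxa2 7 of 10 were lower, against 54.9% of all genes, and the median of -0.13 was within the probe SD of 0.20. Msmo1, the oxidase that starts removal of the methyl groups at carbon 4 of the sterol ring, lies at chr8:64718123-64733578 and had signals of 2152, 1383, 1593 and 1400. It was lower on all 3 factor arrays, by -0.74, -0.65 and -0.83. Cyp51, the lanosterol demethylase, was also lower on all 3 but lowest with Nurr1 alone, its signals being 2414, 1771, 2128 and 2006 and its differences -0.54, -0.36 and -0.45. For both enzymes the Control array was the highest of the 4.

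The desaturase Sc5d and the reductase Dhcr7, which act near the end of the route, were lowest with Nurr1 alone. Sc5d signals were 384, 291, 415 and 390, with differences of -0.70, -0.17 and -0.31. Dhcr7 signals were 425, 295, 396 and 412, with differences of -0.86, -0.45 and -0.39. With both factors Sc5d was 0.39 and Dhcr7 0.47 above the Nurr1 array, and both were still under Control. Lss, the lanosterol synthase, was instead lower on both arrays with Nurr1, with signals of 581, 468, 647 and 460 and differences of -0.49, -0.08 and -0.68.

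Ebp went the other way from these enzymes. It encodes the sterol isomerase of the same route and lies at chrX:8185329-8193512. Its signal was 482 on Control, 827 with Nurr1, 664 with Foxa2 and 1092 with both. All 3 factor arrays were above Control, with differences of 0.74, 0.24 and 1.07, the last being 2.10-fold. That value was only just past 2-fold and was 0.95 without background correction, and Ebp has 1 probe here. Hsd17b7, the sterol ketone reductase, was also above Control on each factor array, with signals of 1503, 1787, 1858 and 2086 and differences of 0.18, 0.13 and 0.31, the first 2 within the probe SD.

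The remaining enzymes of this route stayed nearer to Control on the probes that represent them. Sqle, the squalene epoxidase, had signals of 8256, 6740, 9239 and 7817 and differences of -0.31, 0.09 and -0.16. Its other probe gave -0.46, -0.28 and -0.42, so the probes were of opposite sign for Foxa2. Nsdhl, the dehydrogenase that acts after Msmo1, had differences of -0.18, -0.07 and -0.17 from signals of 1222, 1158, 1342 and 1248, while its other 3 probes gave values between -0.67 and -0.23 for Nurr1. Tm7sf2, a sterol reductase, was dim at 211, 237, 214 and 284, with differences of 0.07, -0.35 and 0.23.

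**Figure D3:**
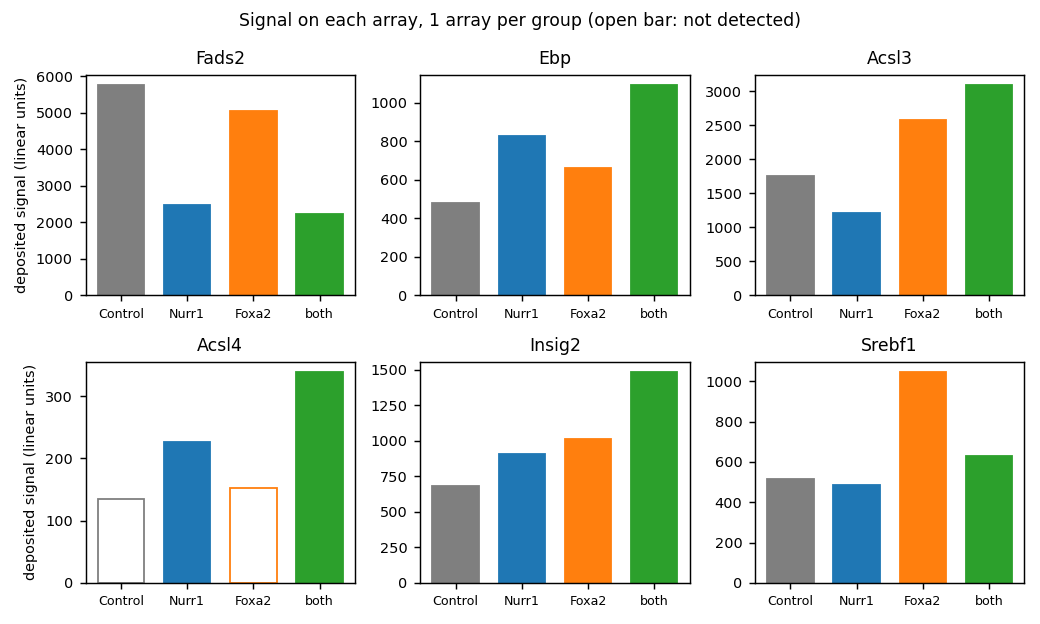
Bead signal before normalization (vertical axes) on the Control, Nurr1, Foxa2 and Nurr1+Foxa2 arrays for Fads2, Ebp, Acsl3, Acsl4, Insig2 and Srebf1, 1 array per group, with open bars where the probe was not detected and no error bars because there are no replicates. Fads2 is low on both arrays with Nurr1 (2492 and 2229, against 5765 and 5052), and Ebp is highest with both factors (1092).

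The plot of signals by array shows these patterns before any normalization. Among the SREBP regulators, the transcription factor genes differed from each other. Srebf1, which encodes the SREBP proteins most tied to fatty acid synthesis, lies at chr11:60199084-60224186 and had signals of 517, 485, 1045 and 629. It was 1.84-fold higher with Foxa2 alone (0.88), and its differences were -0.24 with Nurr1 and 0.06 with both. Srebf2, the gene of the SREBP most tied to cholesterol synthesis, had signals of 1298, 1055, 1391 and 1100, and differences of -0.41, -0.11 and -0.46. The array with both factors was lower than the Foxa2 array for Srebf1 (-0.82), by single arrays and without a test. Scap, the escort protein, had signals of 766, 723, 882 and 836 and differences of -0.20, -0.03 and -0.11.

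The INSIG genes lay on opposite sides of Control. Insig1, which is itself a target of SREBP and lies at chr5:28071412-28078662, had signals of 866, 681, 720 and 609. It was lower by -0.47, -0.55 and -0.81, and its other 2 probes gave -0.98 and -0.35 with both factors. Insig2, at chr1:121304353-121332662, had signals of 682, 905, 1012 and 1481. It was higher by 0.34, 0.38 and 0.99, the last being 1.99-fold and so just under the line. Its other probe gave the same 0.99 with both factors, but -0.00 with Nurr1.

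Fads2 had the lowest values among the members in every comparison where Nurr1 was present and absent on the other array. It encodes the desaturase that begins the conversion of essential fatty acids into long polyunsaturated ones, and lies at chr19:10062765-10101503. Its signal was 5765 on Control, 2492 with Nurr1, 5052 with Foxa2 and 2229 with both. Both arrays with Nurr1 were below both arrays without it. The log2 differences from Control were -1.28 with Nurr1 (2.42-fold lower), -0.31 with Foxa2 and -1.54 with both (2.91-fold lower). They stayed past 2-fold under all 7 alternative settings, but Fads2 has 1 named probe. Fads1, the next desaturase of that route, had signals of 28344, 23225, 28132 and 19962 and smaller differences of -0.21, 0.01 and -0.52.

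The acyl-CoA ligases, which activate fatty acids, read differently on their separate probes. For Acsl3, at chr1:78657825-78707743, the brighter probe had signals of 1752, 1217, 2580 and 3095. It was lower with Nurr1 (-0.64) and higher with Foxa2 (0.40) and with both (0.69). The dimmer probe, at 292, 237, 394 and 354, gave -0.63, 0.22 and 0.01, so the probes were alike for Nurr1 and parted for both factors. Acsl4, at chrX:142317993-142390802, prefers arachidonic acid. Its representing probe read 227 with Nurr1 and 338 with both, and was not well above background on Control (135) or Foxa2 (152). With both factors it was at least 2.39-fold higher than Control after background correction (1.26 on the log2 scale), but 0.79 without that correction, 0.80 in the authors' deposited log2 values and 0.50 with the mean of its probes. A second Acsl4 probe, at 173, 190, 156 and 208, gave 0.06 for the same comparison, and the third was undetected on all 4 arrays.

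**Figure D4:**
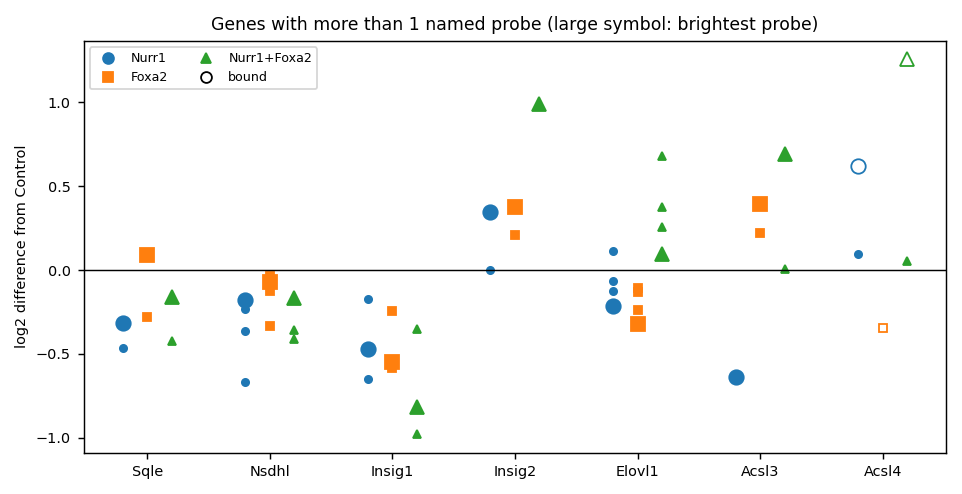
Log2 difference from Control (vertical axis) for each named probe of the members with more than 1, on the Nurr1, Foxa2 and Nurr1+Foxa2 arrays; large symbols are the probe that represents the gene and open symbols are bounds. Both Insig2 probes stand at 0.99 with both factors, while those of Acsl3 stand at 0.69 and 0.01.

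The plot of separate probes covers the 7 members with more than 1 named probe, and the other 26 rest on a single probe. The genes of the first steps of fatty acid synthesis, Acly and Acaca, were lowest with both factors. Acly, which makes cytosolic acetyl-CoA from citrate, had signals of 10204, 9778, 10543 and 8708 and differences of -0.06, -0.01 and -0.31. Acaca, the acetyl-CoA carboxylase, had signals of 2554, 2238, 2603 and 1856 and differences of -0.28, -0.16 and -0.65. Fasn, the fatty acid synthase, was detected only with Nurr1 (170) and with both (207), close to the lowest detected signals, and gave no difference between either single factor and Control.

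The oleate-making desaturases Scd1 and Scd2 and the elongase Elovl5 were lowest with Nurr1 alone. Scd2, the main stearoyl-CoA desaturase of the mouse brain, had signals of 4300, 2953, 3956 and 4147 and differences of -0.62, -0.28 and -0.20. Elovl5, which elongates polyunsaturated fatty acids, had signals of 11679, 8365, 13841 and 13055 and differences of -0.52, 0.13 and 0.04. In both genes the Nurr1 array was low and the array with both factors stood near Control. Scd1 had differences of -0.21, -0.02 and 0.12 from signals of 982, 906, 1119 and 1201. Elovl6, the elongase of palmitate, had differences of -0.08, -0.27 and -0.26 from signals of 1557, 1558, 1503 and 1489. Elovl1, which makes very long saturated chains, had differences of -0.21, -0.32 and 0.09 from signals of 1743, 1582, 1595 and 2080, and its other 3 probes were higher with both factors, by 0.25 to 0.68.

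The carriers that move cholesterol differed from each other. Stard4, a cytosolic cholesterol carrier and a known SREBP target, had signals of 534, 361, 492 and 386 and was lower by -0.81, -0.43 and -0.88. Npc2, which hands cholesterol out of the lysosome, had signals of 996, 871, 1007 and 1410. It was lower with each single factor (-0.30 and -0.22) and higher with both (0.33).

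Adding Foxa2 to Nurr1 gave higher readings for most members. Of 33 members, 21 were higher with both factors than with Nurr1 alone and 12 were lower, and the median was 0.15. Over 7950 genes, 41.2% were above 0 and 58.6% below, and the median was -0.08. With arrays scaled to equal medians, the median was 0.08 for the members and -0.10 for all genes. Past 2-fold was 1 member on the higher side, Acsl3 (2.51-fold, 1.33 on the log2 scale), and none on the lower side, against 4.43% and 1.74% of all genes. Above 0 by more than 2 probe SDs, the SD here being 0.20, were 7 members (21.2%), against 14.3% of all genes, and none was below 0 by that much, against 15.8%. Insig2 (0.65), Npc2 (0.64), Elovl5 (0.56), Dhcr7 (0.47) and Scd2 (0.42) were among the higher ones. The other probe of Acsl3 gave 0.63, and with the mean of both probes Acsl3 stood at 0.98, just under 2-fold.

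Adding Nurr1 to Foxa2 divided the members about equally. Of 33, 16 were above 0 and 17 below, with a median of -0.07, where 44% of 8033 genes were above 0, 55.9% were below and the median was -0.05. Past 2-fold were 1 member on the higher side, Acsl4, and 1 on the lower side, Fads2 (2.35-fold lower, -1.23), against 4.82% and 3.86% of all genes. The Acsl4 difference was 1.49 against a floor at the lowest detected signal of the Foxa2 array. It was 0.91 both without background correction and in the authors' deposited log2 values, and 0.40 with the mean of its probes, so that under these 3 settings no member was past 2-fold higher. Srebf1 (-0.82) and Lss (-0.60) were the next lowest, and Ebp (0.83) and Insig2 (0.62) the next highest. Both comparisons use the array with both factors and therefore share it.

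The joint term, which is the array with both factors minus Nurr1 minus Foxa2 plus Control in log2, was above 0 for 26 of 31 members and below for 5, with a median of 0.27. Over all 7127 genes detected on all arrays, 46.9% were above 0 and 53.1% below, and the median was -0.03. Of 13 genes of fatty acid oxidation, 11 were above 0, with a median of 0.28. The lists nearer to the members did not show this. Of 7 other sterol and SREBP genes, 4 were above 0 (median 0.003), and of 14 other fatty acid synthesis genes, 6 (median -0.04). Of 12 genes of sterol turnover, export and uptake, 6 were above 0 (median 0.007). No member reached 1 in size, where 5.95% of all genes did. The term was highest for Acsl3 (0.93), Dhcr7 (0.92) and Npc2 (0.85), and lowest for Srebf1 (-0.58). A positive term for Dhcr7 and Scd2 (0.70) came with values below Control on all 3 factor arrays, where the negative differences of the single factors summed to more than that of both together. It was near 0 for Fads2 (0.04) and Hmgcs1 (0.04). The Control array enters this term as well as the 3 comparisons with it. When arrays were scaled to equal medians, 23 of 31 members were above 0, with a median of 0.22, against 40.9% of all genes.

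**Figure D5:**
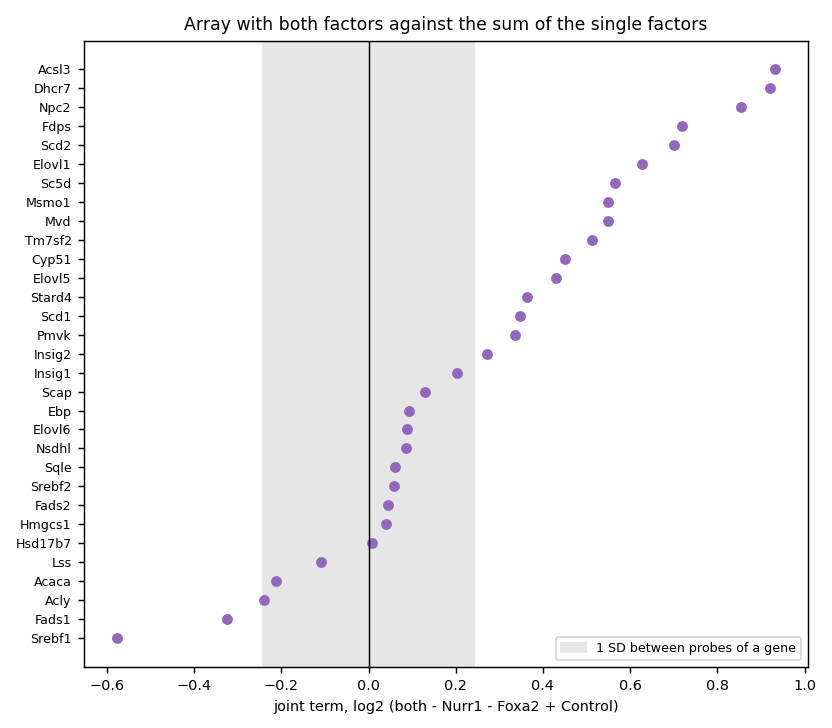
Joint term in log2 (horizontal axis) for each of the 31 members detected on all 4 arrays, in order of size, with the grey band marking 1 SD between probes of a gene (0.24). Of these, 26 lie above 0, and Acsl3, Dhcr7 and Npc2 are the highest at 0.85 to 0.93.

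The plot of joint terms shows the order of the members, with the early enzymes at a median of 0.44 (4 of 4 above 0) and the squalene to cholesterol enzymes at 0.27 (9 of 10 above 0). The SREBP regulators had a median of 0.13, with 4 of 5 above 0. The 10 fatty acid genes detected throughout had a median of 0.22, with 7 above 0.

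Other genes of lipid metabolism, from lists chosen by pathway with earlier results of these data known, were set beside the members. Of 16 other sterol and SREBP genes, 7 have a named probe, with medians of 0.01, 0.10 and 0.13 against Control for Nurr1, Foxa2 and both, and none was at least 2-fold higher or lower. Of 13 named genes of fatty acid oxidation, the route that breaks down fatty acids, 10 were above Control with both factors, with a median of 0.34. Above the Nurr1 array were 10 of the 13, with a median of 0.33. The shares of all genes above 0 were 42.1% and 41.2%. With each single factor 6 of the 13 were above Control and 7 below, with medians of -0.03 for Nurr1 and -0.02 for Foxa2. Acaa2, the thiolase of that route, was 2.24-fold lower with both. Ppargc1a, a coactivator of oxidative genes, was 2.85-fold higher with Nurr1, with signals of 391 on Control and 1055 on the Nurr1 array.

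Of 14 named genes of sterol turnover, export and uptake, 1 was past 2-fold higher and 2 past 2-fold lower with Nurr1, 1 was past 2-fold higher with Foxa2, and 2 were past 2-fold on each side with both factors. Over all genes the shares were 4.43% higher and 2.83% lower with Nurr1, 3.58% higher with Foxa2, and 7.16% higher and 4.82% lower with both. Vldlr, a receptor for lipoproteins and for reelin, had signals of 1010, 3479, 1409 and 3077, and was 3.44-fold higher with Nurr1 and 2.85-fold higher with both. Cyp7b1, the oxysterol hydroxylase, had signals of 539, 229, 418 and 237, and was 3.41-fold lower with Nurr1 and 3.81-fold lower with both. In both genes the 2 arrays with Nurr1 stood apart from the 2 without it, as for Fads2. Nceh1, a cholesteryl ester hydrolase, had signals of 880, 1148, 1877 and 2304 and was 2.45-fold higher with both. Abca7, a lipid transporter, had signals of 642, 685, 1718 and 989 and was 2.49-fold higher with Foxa2. Cyp46a1, the neuronal cholesterol hydroxylase, was lower by -1.13 on the log2 scale with Nurr1, and Stard5, a sterol carrier, was 2.28-fold lower with both. Of 16 other named fatty acid synthesis genes, 1 was past 2-fold higher in each comparison with Control, where the shares over all genes were 4.43%, 3.58% and 7.16%. These were the elongase Elovl2 with Nurr1 (1.58 on the log2 scale), Fads3 with Foxa2 (2.43-fold higher) and the ligase Acsl5 with both (2.59-fold higher). With Nurr1, 8 of the 16 genes were above 0 and 7 below, with a median of 0.004, so the lower values of the members were not seen here. Their medians were -0.03 with Foxa2 and 0.007 with both.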

How the data were processed

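RNA of 4 cultures, 1 per group, was measured on single-colour Illumina mouse bead arrays, per the labels. The deposited scanner table holds, per the file headers, a mean bead signal (intensity, not normalized between arrays) and a detection p-value for each of 25697 probes. The authors' deposited value table gives log2 values of 13246 of them. For the software and steps behind both, the sources used here name none. Probes of the value table were named through GEO's platform annotation, which gives 12484 of them 1 symbol, so a gene measured only by another probe is unnamed here.

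Intensities were background-corrected with the detection p-values, quantile normalized and log2 transformed with neqc in limma 3.58.1 (R 4.3.3, offset 16). The probe with the highest mean stood for a gene, and detection was a p-value below 0.01. Differences were taken between arrays in Python 3.11.15 with pandas 2.3.3 and numpy 2.4.6, with figures by matplotlib 3.10.9. The normalization was tested on simulated data by plain differences between arrays. The detection rule for calls and the bounds were not part of that test. With 1 array per group no test was made, and the number of arrays limits the precision. Every member is accounted for by role, and members reaching 2-fold in any comparison, and the 3 with the largest joint terms, have their signal given on each array. Of the other lists, members are named where they reached 2-fold against Control. The members and lists were chosen with earlier results of these data known. Motifs were counted in the RefSeq windows of 250 bases before each start.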

Additional observations from a re-analysis of the deposited data

How the results depend on the processing

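Each result was recomputed under 7 settings: no background correction, an offset of 50, scaling to equal medians, the authors' deposited log2 values, detection at a p-value below 0.05, no filter and no floor, and the mean of a gene's probes. No difference of 2-fold changed sign; the joint term of Ebp, 0.09 as reported, was -0.06 when scaled to equal medians. The 27 members below Control with Nurr1 were 27 under every setting, and the median moved between -0.30 and -0.26 when undetected genes were entered as 0. With both factors 19 members were below Control, and 21 when scaled to equal medians, and their median went from -0.17 to -0.26 with the mean of probes. That scaling gave all genes a median of -0.13 with both factors against Control, so values there are read relative to it. The count of members at least 2-fold higher with both factors than with Control went from 2 to 0 both when background was left in and for the authors' values, and to 1 with the mean of probes. Against Foxa2 it went from 1 to 0 under the same 3 settings. Against Nurr1 it went from 1 to 0 with the mean of probes, where Acsl3 stood at 0.98. With Nurr1 against Control, 1 member (Acsl4, 1.33) was at least 2-fold higher at the looser detection p-value and without a filter, because no bound then applied. Ebp was 0.94 with both factors in the authors' values. No paired analysis was possible because each group has 1 array, and leaving out an array leaves no group to compare. Values near the detection limit (Fasn, Acsl4) carry the least weight.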
